A study of Homo sapiens with 12 samples.

Results

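Chromosome 19 carries the densest set of zinc finger genes in the human genome, and the genes described here are its protein-coding genes whose current symbol is ZNF and a number, with or without a letter. The rule used symbol, biotype and chromosome only, and it found 246 genes among the 57500 gene identifiers of the count tables. Of these, 222 had enough counts to be tested, out of 16402 tested genes. The other 24 had mean levels of at most 0.333 CPM, a count scaled to the size of its library, and 12 of the tested genes had means under 1 CPM. Because the filter keeps a gene that is high in any 1 group, the tested genes are not all members.

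Expression was measured by poly(A)-selected RNA sequencing in THP-1 cells, a line established from a human monocytic leukaemia, and every group carried the same lentiviral non-target shRNA. Cells were held for 4 h in buffered medium at 5% CO2 (normocapnia) or at 10% CO2 (hypercapnia). One group at each CO2 level also received the TLR4 ligand LPS, a component of bacterial cell walls, at 2.5 µg/ml for the last 2 h. Each of the 4 groups (5% CO2, 10% CO2, 5% CO2 with LPS, 10% CO2 with LPS) had 3 libraries. Whether the replicates were grown as separate cultures is not stated, and the p-values then measure only the spread among these libraries, which may be technical.

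Most zinc finger proteins of this chromosome join an array of C2H2 fingers, which read DNA, to a KRAB domain. The KRAB domain recruits the corepressor TRIM28 (KAP1), which brings the histone methyltransferase SETDB1 and heterochromatin proteins to the bound site, and many of the sites lie in retrotransposons. Their genes sit in tandem clusters that grew by duplication, and their transcripts are known as short-lived and scarce.

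Library totals were 17.1 to 22.2 M counts, and a count of 3 corresponded to 0.132 to 0.179 CPM. All 12 monocyte markers were tested, with a summed level of 911 to 1725 CPM over the libraries. Of 14 markers of other cell types, 10 were under 1 CPM and HBA1 was at 0 in every library, while PECAM1, which monocytes also express, made up most of the rest. All 10 inflammatory check genes rose with LPS at both CO2 levels. The mitochondrial share of counts was higher at 10% CO2 (2.66% ± 0.563 against 1.57% ± 0.340, and 3.11% ± 0.950 against 1.55% ± 0.249 with LPS, SD, n = 3), and a fit without mitochondrial genes gave 1 member lower and 0 higher at 10% CO2 without LPS and 2 lower and 6 higher with LPS, where the fit with them gives 2 and 0, and 2 and 4. In these bulk libraries, fewer cells of a type and less RNA per cell cannot be told apart.

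The members were placed in 20 clusters, with neighbours under 500 kb apart in the same cluster. The first, on the short arm, held ZNF554, ZNF555, ZNF556, ZNF57 and ZNF77 (chromosome 19, 2819874 to 2944971, GRCh38), whose 5 genes were all lower with LPS at both CO2 levels. The promoter sequences of these genes are shown because the genes are neighbours that moved together, and those of ZNF274 and ZNF723 because these were the members that rose with LPS at both CO2 levels. Each line gives the 250 bases before the start annotated by RefSeq on GRCh38.p14, 5′ to 3′ on the gene's strand. For ZNF274 and ZNF723 the gene begins earlier in the count tables, so the last bases of their lines lie inside the counted gene. Capitals mark every GGGCGG (the GC box bound by SP factors) and every CCAAT (the box bound by NF-Y), on either strand. A match is a description of letters, not of a bound site.
ZNF554 (chr19:2819618-2819867, plus strand): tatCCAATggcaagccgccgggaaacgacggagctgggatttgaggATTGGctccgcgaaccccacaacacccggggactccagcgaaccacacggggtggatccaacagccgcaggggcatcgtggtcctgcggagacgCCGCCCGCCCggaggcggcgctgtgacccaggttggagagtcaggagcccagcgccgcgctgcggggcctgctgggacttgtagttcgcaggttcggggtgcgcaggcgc
ZNF555 (chr19:2841225-2841474, plus strand): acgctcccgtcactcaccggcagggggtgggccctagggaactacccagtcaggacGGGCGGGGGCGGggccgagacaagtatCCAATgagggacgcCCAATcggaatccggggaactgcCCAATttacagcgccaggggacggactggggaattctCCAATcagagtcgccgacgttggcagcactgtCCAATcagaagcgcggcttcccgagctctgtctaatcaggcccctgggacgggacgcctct
ZNF556 (chr19:2867085-2867334, plus strand): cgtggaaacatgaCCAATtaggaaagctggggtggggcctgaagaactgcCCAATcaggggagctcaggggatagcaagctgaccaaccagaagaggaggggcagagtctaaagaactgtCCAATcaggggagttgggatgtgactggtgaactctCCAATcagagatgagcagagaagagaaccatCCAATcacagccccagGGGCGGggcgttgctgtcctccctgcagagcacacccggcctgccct
ZNF57 (chr19:2900678-2900927, plus strand): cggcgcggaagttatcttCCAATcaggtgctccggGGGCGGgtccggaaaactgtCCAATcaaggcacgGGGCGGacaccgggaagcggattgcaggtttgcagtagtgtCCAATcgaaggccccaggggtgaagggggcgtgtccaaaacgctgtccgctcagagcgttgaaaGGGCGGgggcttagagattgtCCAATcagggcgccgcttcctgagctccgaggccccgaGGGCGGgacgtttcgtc
ZNF77 (chr19:2944972-2945221, minus strand): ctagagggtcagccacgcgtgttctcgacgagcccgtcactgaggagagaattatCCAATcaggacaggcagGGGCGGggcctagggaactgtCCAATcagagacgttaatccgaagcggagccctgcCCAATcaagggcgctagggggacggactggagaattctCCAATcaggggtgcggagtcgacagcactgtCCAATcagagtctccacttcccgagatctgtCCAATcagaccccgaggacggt
ZNF274 (chr19:58182811-58183060, plus strand): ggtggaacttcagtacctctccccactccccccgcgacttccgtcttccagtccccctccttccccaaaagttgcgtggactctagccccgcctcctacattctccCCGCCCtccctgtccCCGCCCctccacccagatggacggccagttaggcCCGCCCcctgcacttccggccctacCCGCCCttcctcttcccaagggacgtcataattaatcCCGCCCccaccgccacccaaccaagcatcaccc
ZNF723 (chr19:22832041-22832290, plus strand): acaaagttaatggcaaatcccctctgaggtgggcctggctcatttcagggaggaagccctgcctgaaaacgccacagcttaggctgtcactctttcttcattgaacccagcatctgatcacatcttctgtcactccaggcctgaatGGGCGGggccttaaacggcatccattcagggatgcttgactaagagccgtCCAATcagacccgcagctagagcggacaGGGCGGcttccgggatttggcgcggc
The first 5 lines all hold both motifs, and so does that of ZNF723, which rose. CCAAT occurs 2 times before ZNF554, 4 times before ZNF57, 5 times before ZNF555 and before ZNF556, and 6 times before ZNF77. It occurs once before ZNF723 and 0 times before ZNF274, whose line holds 5 GC boxes. Promoter windows of 300 bases (250 before and 50 after the start) were found for 195 of the 222 tested members. Of these, 37.4% held both motifs, against 25% of the 11523 tested genes with a window and 15.1% of all 27305 windows. CCAAT alone was in 53.8% of member windows (36.5% of tested genes, 35.7% of all windows) and GGGCGG in 66.7% (68.6% and 44.6%). Among the 45 windows of members called lower with LPS at both CO2 levels, CCAAT was in 57.8%, near its share of all member windows, and GGGCGG in 77.8%. Among the 10 windows of members called higher at either level they were in 40% and 70%. In the third cluster along the chromosome 1 of 10 windows held both. CCGGAA, the core read by ETS factors, was in 56.4% of member windows (29.0% and 17.6%), but in the first cluster ZNF57 alone held it. It was in 42.2% of the 45 windows of members called lower and in 80% of the 10 of members called higher. The difference between these shares was not tested. TATAAA was in 2.05% (5.93% and 12%), the YY1 core in 7.18% (5.17% and 3.03%) and the NF-κB motif in 4.10% (2.12% and 1.92%). Both strands were searched, none of the 6 motifs contains another, and neighbouring matches can share bases.

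Members are scarce transcripts in THP-1 cells. The median tested member had a mean of 9.94 CPM, against 15.7 CPM over all tested genes. Per kilobase of exon, ZNF146, a protein made almost only of fingers, was highest at 33.2 CPM per kb, followed by ZNF787 (15.6), ZNF317 (14.3), ZNF428 (11.5), ZNF480 (8.69) and ZNF93 (8.37), the last a repressor of LINE-1 elements. ZNF146 and ZNF428 overlap exons on the opposite strand over 10.8% and 27.6% of their length, and the strand setting of the counting is not given, so part of their counts may belong to those partners. In all, the members gave 0.336% ± 0.0293 of counts at 5% CO2 and 0.327% ± 0.0122 at 10% CO2. With LPS they gave 0.247% ± 0.0104 at 5% CO2 and 0.260% ± 0.00813 at 10% CO2 (SD, n = 3). The 6 libraries with LPS lay between 0.236% and 0.269%, below the 6 without it, which lay between 0.314% and 0.369%. These are shares of raw totals. The TMM scaling factors were 0.908 to 0.960 with LPS and 1.05 to 1.10 without. A gene of equal normalized CPM would thus also give a smaller raw share with LPS. How many tested genes separate in this way was not counted.

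The proteins encoded by the 246 genes held a median of 12 C2H2 fingers (1 to 36). A strict KRAB A-box pattern was found in 190 and not in 56. Members without the pattern were richer in G and C: 27 of those 56 had exons of at least 50% GC, against 10 of the 190. The median exon GC of tested members was 43.5%, against 48.7% over all tested genes, which makes GC a property to set beside each comparison below.

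**Figure D1:**
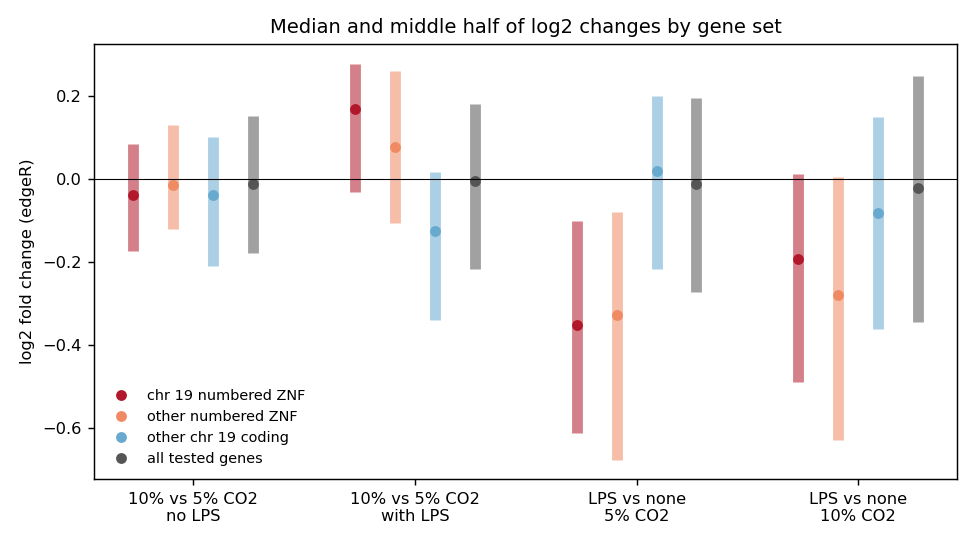
Log2 fold changes (vertical axis) of 4 gene sets in the 4 pairwise comparisons; points are medians and bars run from the lower to the upper quartile. The chromosome 19 ZNF genes (222 tested) and the ZNF genes of other chromosomes (227 tested) both lie below 0 with LPS, with medians of −0.35 and −0.33 at 5% CO2.

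The first comparison asked how LPS changed these genes at 5% CO2. Members fell far more often than they rose: 86 of 222 were called lower and ZNF274 and ZNF723 were called higher, where a call is an adjusted p under 0.05 over all 16402 genes (edgeR quasi-likelihood test, Benjamini-Hochberg). Over all tested genes 13.1% were called lower and 11.8% higher. The median log2 change of members was −0.35, against −0.01 over all tested genes, and 192 of 222 members were below 0. Of the 86 called lower, 85 had all LPS libraries below all libraries without LPS, a pattern shown by 114 tested members and, in the same direction, by 20.4% of all tested genes. Falls of at least 2-fold were found in 18, a count not made over all tested genes.

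The genes of the first cluster fell strongly. ZNF556 (ENSG00000172000, chromosome 19, 2867335 to 2883445) stood at 12.4, 15.2 and 15.7 CPM at 5% CO2 and at 2.86, 4.39 and 4.23 CPM with LPS. The groups did not overlap, and the change was 3.75-fold lower (log2 change −1.91, SE 0.19, adjusted p = 2.93e-07). Its neighbour ZNF57 stood at 5.69, 4.52 and 5.62 CPM without and at 1.56, 1.40 and 2.51 CPM with LPS. This was a 2.89-fold difference with no overlap (log2 change −1.53, SE 0.25, adjusted p = 0.000124), in a gene that shares 13.1% of its exon length with antisense exons. ZNF555 went from 7, 4.85 and 8.12 CPM to 2.08, 1.71 and 3.15 CPM, a 2.88-fold fall (adjusted p = 4.26e-05). ZNF77 fell by 1.11 (SE 0.18) and ZNF554 by 0.71 (SE 0.20) on the log2 scale, again without overlap. All 5 proteins carry the A-box pattern, with 7 to 15 fingers, and at most 1.77% of their 75-base stretches occur in another gene.

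Members outside that cluster fell as far. ZNF114 (ENSG00000178150, 48172318 to 48287608) stood at 7.41, 7.88 and 9.52 CPM at 5% CO2 and at 2.08, 2.64 and 2.07 CPM with LPS, a 3.66-fold difference (log2 change −1.87, SE 0.18, adjusted p = 2.42e-07). The highest LPS library lay well under the lowest library without LPS. ZNF296, whose protein has no A-box pattern and whose exons are 68.1% GC, went from 10.8, 11.4 and 10.3 to 3.90, 5.12 and 4.62 CPM (2.38-fold lower, adjusted p = 4.64e-06). ZNF816 fell 2.33-fold, ZNF570 2.21-fold, ZNF627 2.13-fold and ZNF175 2.04-fold, each without overlap. ZNF175, also called OTK18, is known in macrophages as a factor that acts on the HIV promoter. ZNF491 was called (log2 change −1.45, SE 0.39, adjusted p = 0.00961), but from only 5 to 22 counts per library.

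**Figure D2:**
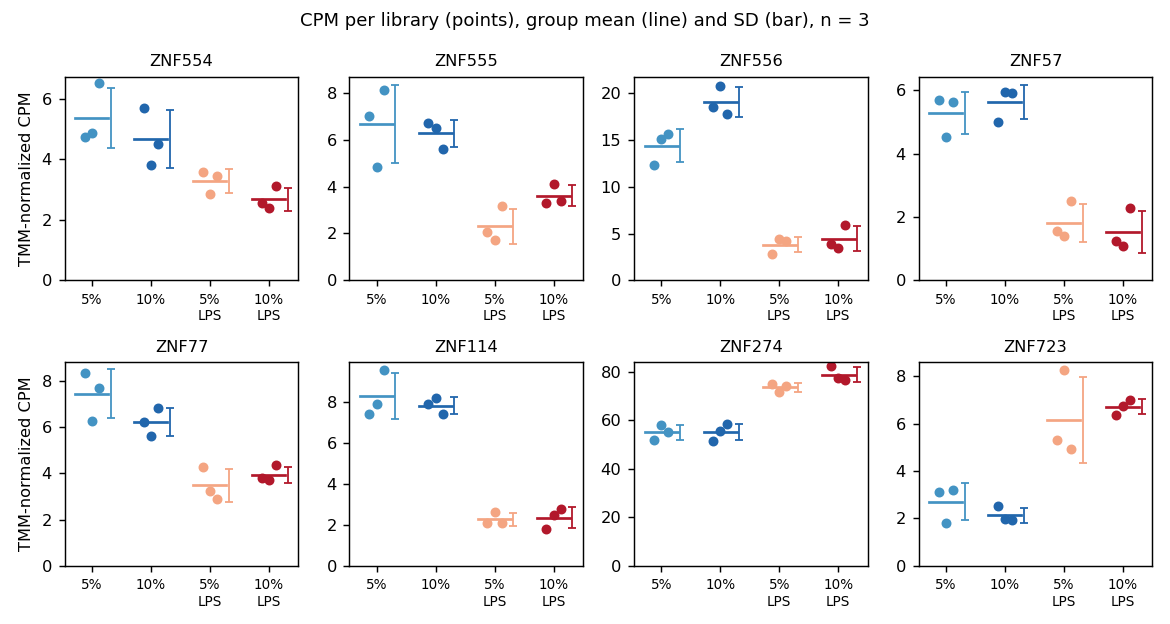
TMM-normalized CPM of 8 members in each library (points), with the mean (line) and SD (bar) of each group of 3; horizontal axis, the 4 groups. The 5 genes of the first cluster and ZNF114 sit lower in both LPS groups, and ZNF274 and ZNF723 sit higher.

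ZNF274 went against the rest. Its gene (ENSG00000171606) lies at 58183029 to 58213562, and the protein is known to bind the 3′ ends of zinc finger genes and to recruit SETDB1 there. It stood at 51.9, 57.9 and 55 CPM at 5% CO2 and at 75.1, 71.5 and 74.0 CPM with LPS, all 3 LPS libraries above all others (1.34-fold higher, log2 change 0.42, SE 0.08, adjusted p = 0.000866). ZNF723 (ENSG00000268696, 22832201 to 22859422) went from 3.12, 1.82 and 3.20 to 5.30, 8.27 and 4.92 CPM, a 2.25-fold rise (log2 change 1.17, SE 0.23, adjusted p = 0.000696). Of the members most abundant per kilobase, ZNF93 fell (log2 change −0.41, SE 0.09, adjusted p = 0.00252), while ZNF146 (0.06, adjusted p = 0.69), ZNF317 (0.06, adjusted p = 0.641) and ZNF787 (0.03, adjusted p = 0.91) were not called.

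The same comparison at 10% CO2 called 60 of 222 members lower and 11 higher, where 18.6% of all tested genes were called lower and 16.6% higher. The median was −0.19 over members and −0.02 over all tested genes, with 162 members below 0. All 60 had no overlap between groups, as had 80 tested members in that direction (24.2% of all tested genes). Of the 60, 5 fell at least 2-fold, again not counted over all tested genes. The 2 LPS comparisons use separate libraries. Of the 86 called lower at 5% CO2, 49 (57.0%) were called lower at 10% CO2 as well, which is 81.7% of the 60 there. Over all tested genes, 1780 were called lower at both, of 2152 called lower at 5% CO2 and 3046 at 10% CO2. A lower call at 5% CO2 thus recurred less often in members than in all tested genes. Across members, the LPS change at 10% CO2 had a Spearman coefficient of −0.271 with exon GC. After a correction for GC trends between libraries it was −0.0305, and recurrence was not counted after that correction. The 1780 are 10.9% of all tested genes, a share to set beside 49 of the 222 members. Of the 37 called lower at 5% CO2 alone, 35 were still below 0 at 10% CO2, and all 11 called lower at 10% CO2 alone were below 0 at 5% CO2.

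ZNF556 again fell furthest, from 18.5, 20.8 and 17.7 CPM to 3.90, 3.47 and 5.97 CPM (4.23-fold, log2 change −2.08, SE 0.19, adjusted p = 4.77e-08). ZNF57 fell 3.57-fold (log2 change −1.83, SE 0.26, adjusted p = 1.43e-05) and ZNF114 3.32-fold (−1.73, SE 0.18, adjusted p = 4.98e-07). ZNF296 fell 2.53-fold. The falls of ZNF555 (1.74-fold, adjusted p = 0.00736), ZNF77 (1.58-fold, adjusted p = 0.00676) and ZNF554 (1.73-fold, adjusted p = 0.0052) completed the first cluster. ZNF30 (3.29-fold, SE 0.32 on the log2 scale) and ZNF837 (2-fold, SE 0.27) were called lower here but not at 5% CO2, where they had log2 changes of −0.71 and −0.44. Their means with LPS were low, 0.580 and 1.49 CPM at 10% CO2. Among the members called lower at both CO2 levels, ZNF93 and ZNF570 had weak calls at 10% CO2. That of ZNF93 was lost without any 1 of 11 libraries and by DESeq2 (adjusted p = 0.0689), and that of ZNF570 without any 1 of 4.

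The 11 members called higher at 10% CO2 included both that rose at 5% CO2. ZNF723 went from 2.51, 1.98 and 1.94 to 6.39, 6.76 and 7.01 CPM (3.13-fold, log2 change 1.65, SE 0.23, adjusted p = 1.62e-05). ZNF274 went from 51.5, 55.7 and 58.3 to 82.3, 77.5 and 76.7 CPM (1.43-fold, adjusted p = 7.88e-05). ZNF91, a repressor of SVA retrotransposons with 31 fingers, went from 34.9, 32.7 and 26.7 to 47.7, 46.3 and 45.3 CPM (log2 change 0.56, SE 0.13, adjusted p = 0.00166). Its change at 5% CO2 was 0.07 (adjusted p = 0.759). ZNF460 (0.76), ZNF222 (0.65), ZNF506 (0.59), ZNF121 (0.51) and ZNF614 (0.49) also rose. ZNF460 lost its call without 10% CO2 replicate 3 (adjusted p = 0.0528) and ZNF222 without 10% CO2 with LPS replicate 1 (0.0554).

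**Figure D3:**
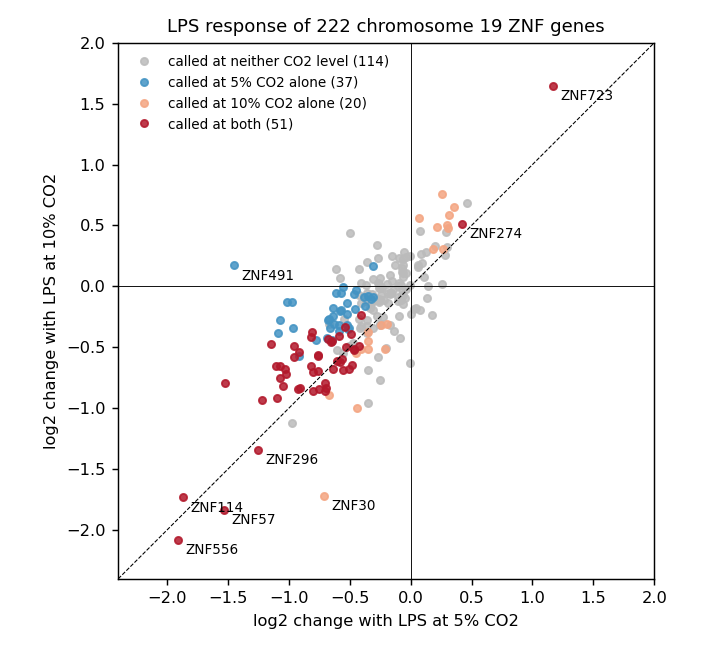
Log2 change with LPS at 5% CO2 (horizontal) and at 10% CO2 (vertical) for the 222 tested members, coloured by where each was called; the dashed line marks equal changes. Calls at both CO2 levels were made for 51 members (49 lower, 2 higher), and ZNF556, ZNF114 and ZNF57 lie at the lower left.

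The share of members called lower varied between clusters. In the first cluster 5 of 5 fell at both CO2 levels (medians −1.53 and −0.80). In the third (8509678 to 9793180, 11 tested), 0 fell at 5% CO2 (median −0.07), and 1 fell and 2 rose at 10% CO2. In the thirteenth (43525497 to 44500524, 21 tested) 12 fell at 5% CO2 and 4 at 10% CO2. The nineteenth (55476332 to 56671783, 14 tested), of median exon GC 60.7%, had 7 and 9 falls. Members with 16 to 31 fingers fell in 28 of 49 cases at 5% CO2 and those with 1 to 9 in 14 of 60, while at 10% CO2 the counts were 18 and 17. With the A-box pattern 66 of 169 tested members fell at 5% CO2, and without it 20 of 53. These counts describe the members and were not tested against each other.

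**Figure D4:**
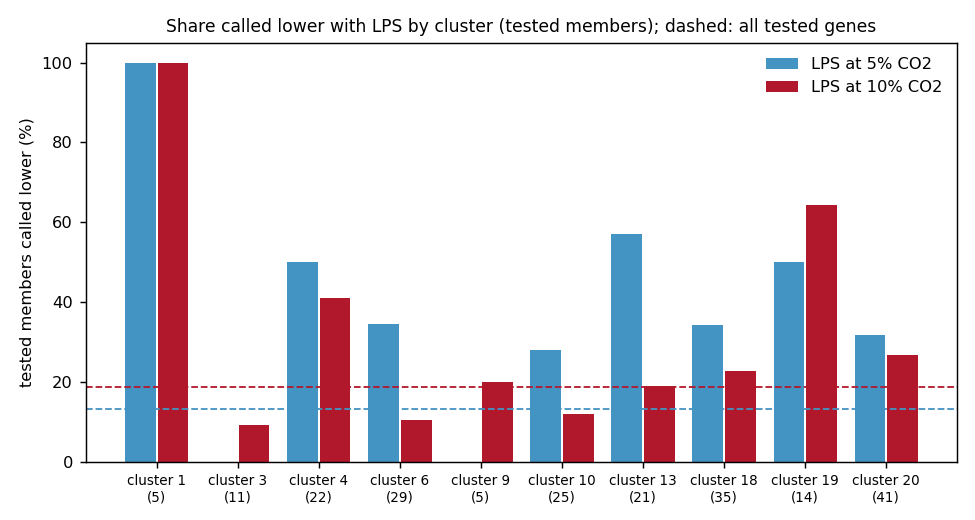
Share of tested members called lower with LPS (vertical axis, percent) at 5% and 10% CO2 in each cluster with at least 5 tested members, numbered along the chromosome with the tested members in brackets; dashed lines give the share of all tested genes (13.1% and 18.6%). The first cluster reaches 100% at both CO2 levels, and the third has 0% at 5% CO2.

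The members' lower calls were set beside their GC content and level. Over 4 equal bins of exon GC, from lowest to highest, 38.9%, 40.0%, 26.3% and 43.5% of members were called lower with LPS at 5% CO2, against 10.2%, 12.6%, 14.1% and 15.6% of all tested genes in the same bins. At 10% CO2 the shares of members were 18.9%, 27.8%, 31.6% and 52.2%, against 10.3%, 15.2%, 20.8% and 28%. Members were thus above all tested genes in each GC bin. The bins are equal in all tested genes but not in members, whose median GC of 43.5% lay near the upper bound of the lowest bin (42.5%). The GC-richer bins thus rest on fewer members. Over 4 equal bins of mean CPM, members had 20%, 43.0%, 40.4% and, in the top bin with 5 members, 0% lower at 5% CO2, against 6.39%, 19.4%, 17.6% and 9.07%. After a correction for GC trends between libraries, 104 members were lower and 2 higher at 5% CO2 (16.5% and 13% of all tested genes), and 84 and 10 at 10% CO2 (20.9% and 17.1%). Among 163 members with under 10% shared stretches or exon overlap, 67 fell at 5% CO2 and 49 at 10% CO2.

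Numbered ZNF genes of other chromosomes also fell more often than they rose: 106 of 227 fell and 8 rose at 5% CO2 (median −0.33), and 93 fell and 16 rose at 10% CO2 (median −0.28). Other protein-coding genes of chromosome 19 had 100 falls and 92 rises of 822 at 5% CO2 (median 0.02), and 194 and 86 at 10% CO2. The differences between these sets and the members were not tested.

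The next comparison asked what 10% CO2 did without LPS. ZNF414 and ZNF628 were called lower and 0 members higher, where 0.665% of all tested genes were called lower and 0.799% higher. At an unadjusted p under 0.05 there were 15 lower and 11 higher of 222 members, beside 1457 and 1405 of 16402 tested genes. DESeq2 called 7 members lower and 1 higher (1.88% and 2.12% of all tested genes). The median over members was −0.04 (−0.01 over all tested genes). Its direction rested on single libraries: it was 0.04 without 5% CO2 replicate 3, and −0.09 and −0.08 without 5% CO2 replicate 2 and 10% CO2 replicate 1. ZNF628, which has 16 fingers and exons of 70.4% GC, stood at 14.1, 18.3 and 13.8 CPM at 5% CO2 and at 8.61, 10.7 and 11.5 CPM at 10% CO2 (1.49-fold lower, log2 change −0.58, SE 0.14, adjusted p = 0.0496). ZNF414 stood at 20.6, 25.9 and 21.5 and at 13.3, 14.3 and 18.1 CPM (1.48-fold lower, log2 change −0.57, SE 0.14, adjusted p = 0.0457). Neither pair of groups overlapped. Both calls sat at the threshold: ZNF628 lost its call without any 1 library other than 10% CO2 replicate 3, and ZNF414 without any 1 other than that one or replicate 1 of 5% CO2 with LPS (adjusted p up to 0.200 and 0.246). With the GC correction 8 members were lower and 1 higher (2.28% and 3.08% of all tested genes), and both genes kept theirs (adjusted p = 0.00728 and 0.00804). Without mitochondrial genes ZNF628 missed the threshold (adjusted p = 0.0526).

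With LPS, the log2 changes of members between 10% and 5% CO2 lay mostly above 0, and few passed the test. ZNF525, ZNF561, ZNF570 and ZNF614 were called higher and ZNF414 and ZNF628 lower, where 4.29% of all tested genes were higher and 4.46% lower. The median was 0.17, against −0.01 over all tested genes, and 158 of 222 were above 0. Without replicate 1 of 5% CO2 with LPS the median was 0.11 (0.11 to 0.20 over all libraries left out in turn). In 53 members the lowest library at 10% CO2 was above the highest at 5% CO2, as in 16.2% of all tested genes. ZNF570 stood at 3.27, 2.95 and 3.59 CPM at 5% CO2 and at 6.21, 5.20 and 4.58 CPM at 10% CO2 (1.62-fold, log2 change 0.70, SE 0.18, adjusted p = 0.0233). ZNF525 stood at 12, 11.6 and 15.7 and at 16.9, 19.7 and 18.8 CPM (1.40-fold, adjusted p = 0.0415). ZNF561 and ZNF614 rose 1.29-fold and 1.31-fold, and both missed the threshold with no low-count filter (adjusted p = 0.0597 and 0.0626). ZNF628 fell from 9.51, 10.7 and 9.44 to 6.62, 5.86 and 6.78 CPM (log2 change −0.62, SE 0.15, adjusted p = 0.0193) and ZNF414 from 20.5, 16.6 and 18.8 to 11.1, 13.8 and 13.8 CPM (−0.53, SE 0.14, adjusted p = 0.0262). Each of these 6 calls was lost without some of the LPS libraries, from 3 for ZNF414 and ZNF628 to 5 for ZNF614, among them replicate 1 of 5% CO2 with LPS and replicate 2 of 10% CO2 with LPS for all 6, with adjusted p up to 0.166. ZNF525 and ZNF614 also lost theirs without 10% CO2 replicate 2, and ZNF614 without 5% CO2 replicate 1.

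In this comparison the changes varied with GC content. The Spearman coefficient between the log2 change and exon GC was −0.447 across the 222 members, which share libraries and are not independent, and −0.175 after the GC correction. Over the GC bins the member medians were 0.23, 0.11, 0.10 and −0.20, beside 0.11, 0.03, −0.05 and −0.13 for all tested genes. The 3 libraries of 10% CO2 with LPS had the lowest GC trends of all, −0.249 to −0.269 (log2 units, GC-rich minus GC-poor genes), against −0.0348 to 0.127 at 5% CO2 with LPS. With the correction, the median member was at 0.10, 3 members were called higher and 3 lower (5.91% and 4.69% of all tested genes), and ZNF525 and ZNF614 missed the threshold (adjusted p = 0.0505 and 0.0522). The part of GC in these changes was otherwise not tested.

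**Figure D5:**
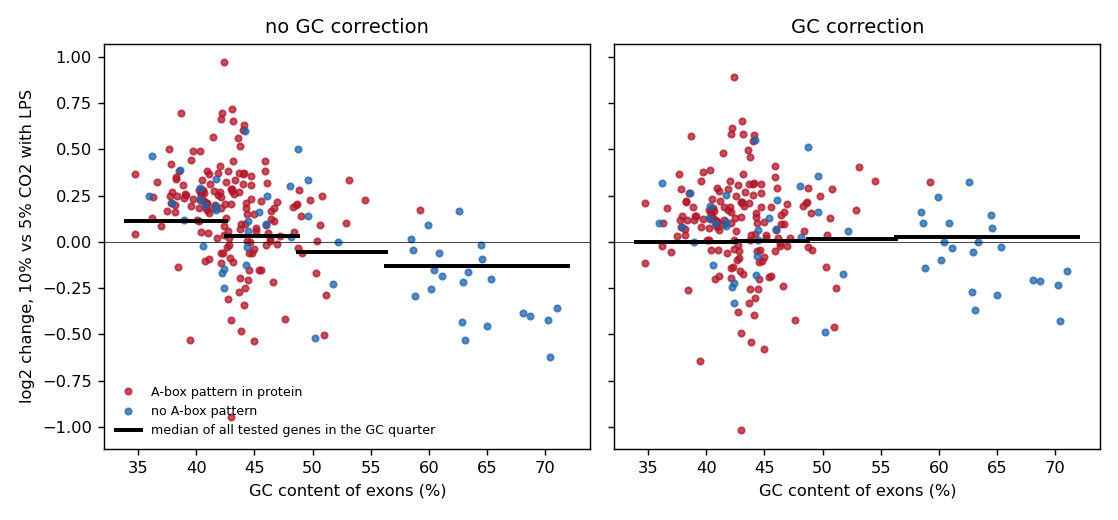
Log2 change between 10% and 5% CO2 with LPS (vertical) against exon GC content (horizontal, percent) for the 222 tested members, before (left) and after (right) the GC correction; black lines are medians of all tested genes per GC bin. Before the correction, the member median falls from 0.23 in the GC-poorest to −0.20 in the GC-richest bin.

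The interaction, the LPS change at 10% CO2 minus that at 5% CO2, called 0 members in either direction, where 0.0244% of all tested genes were called higher and 0% lower. At an unadjusted p under 0.05 there were 19 higher and 1 lower of 222 members, beside 543 and 446 of 16402 tested genes. DESeq2 called 0 members (0.299% of all tested genes higher and 0.0122% lower). The median interaction over members was 0.16 (0.12 after the GC correction), against −0.01 over all tested genes. Without 5% CO2 replicate 3 it was 0.10 (0.10 to 0.23 over all libraries left out in turn). Comparisons that share a group, such as both LPS comparisons with the CO2 comparisons, share that group's libraries. The smaller number of falls at 10% CO2 was therefore not shown to differ gene by gene.

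Among listed genes of KRAB corepressor complexes and of related chromatin factors, both rises and falls were called. The list is thus wider than the complexes that KRAB proteins recruit. Of its 39 genes, all tested, 8 (20.5%) fell and 2 (5.13%) rose with LPS at 5% CO2, beside 13.1% and 11.8% of all tested genes. At 10% CO2 11 (28.2%) fell and 7 (17.9%) rose, beside 18.6% and 16.6%, so that the share of rises there was about that of all tested genes. TRIM28 itself stood at 405 to 508 CPM in all libraries and was not called (log2 changes 0.09 and 0.01), except at 10% CO2 with the GC correction (0.21, adjusted p = 0.0244), and at both CO2 levels once the replicate block was added to it. SETDB1 fell by 0.34 and 0.32 (SE 0.08 for both, adjusted p = 0.00263 and 0.0029). SETDB2, a related methyltransferase, fell by 0.58 and 1.01, UHRF1, which links DNA methylation to histone marks, by 0.60 and 0.97, and GATAD2B, a NuRD subunit, by 0.55 and 0.50. TRIM24, a relative of TRIM28, rose by 0.24 and 0.62. In the CO2 comparisons 1 of the 39 fell without LPS, GATAD2B (−0.44, adjusted p = 0.0464), beside 0.665% of all tested genes. With LPS, CBX1, an HP1 protein, and HDAC2, a deacetylase, rose (0.39 and 0.37), and UHRF1 (−0.36) and GATAD2B (−0.40) fell, 2 of 39 (5.13%) in each direction beside 4.29% higher and 4.46% lower of all tested genes. These CO2 calls depended on single libraries: each was lost without replicate 2 of 10% CO2 with LPS (adjusted p up to 0.246 over the libraries left out), and that of UHRF1 also with the GC correction. Without replicate 1 of 5% CO2 with LPS the calls of CBX1, HDAC2 and GATAD2B made with LPS were lost, and without its replicate 2 those of CBX1, UHRF1 and GATAD2B. The call of TRIM24 at 5% CO2 was lost without any 1 of 6 libraries (adjusted p up to 0.162).

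Since these transcripts are known to be short-lived, genes that act in mRNA decay were listed beside them. Of 36 tested, 9 (25%) rose and 6 (16.7%) fell with LPS at 5% CO2, beside 11.8% and 13.1% of all tested genes. At 10% CO2 11 (30.6%) rose and 6 (16.7%) fell, beside 16.6% and 18.6%. The shares that fell were close to those of all tested genes. BTG2, an adaptor for deadenylation, rose by 5.57 (SE 0.14) and 6.26 (SE 0.15) on the log2 scale, and its relative BTG3 by 2.15 and 2.25. ZFP36 (tristetraprolin), which speeds decay of AU-rich mRNAs, rose by 0.89 and 0.83, whereas its relative ZFP36L2 fell by 1.67 and 1.74 and the deadenylation factor gene TOB1 by 0.56 and 0.42. At 10% CO2 without LPS 5 of the 36 (13.9%, beside 0.665% of all tested genes) fell, among them TOB1 (−0.63), BTG2 (−0.67), PAN3 (−0.51) and ZFP36 (−0.46). With LPS 3 (8.33%, beside 4.46%) fell, TOB1 (−0.49), PAN3 (−0.43) and ZFP36 (−0.51). Without 10% CO2 replicate 2, and likewise without 5% CO2 replicate 1, the 4 named calls made without LPS were lost (adjusted p up to 0.257 over the libraries left out). With LPS, those of TOB1 and PAN3 were lost without replicate 2 of 10% CO2 with LPS and those of ZFP36 and PAN3 without replicate 2 of 5% CO2 with LPS (0.0582 for ZFP36). Whether decay rates bear on the members was not tested.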

How the data were processed

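Poly(A)-selected, paired-end RNA sequencing was done on 12 libraries. The authors deposited raw counts of reads, as a featureCounts table for each library with Ensembl gene identifiers. Per the submitters' processing notes, GRCh38 was the build, and the tools were Trimmomatic (0.36), Subread (1.5.2) with its featureCounts, and STAR (2.5.2b). Which annotation release, strand option and rule for multi-mapping were used is not given in the sources used here. Overlapping, antisense or near-identical genes may therefore exchange reads: 18 members shared over 20% of their 75-base stretches with other genes, 36 overlapped exons on the same strand and 23 on the other strand over more than 10% of their length. Replicate numbers were checked by correlating the deviations of libraries from their group means. The numbers were taken to pair the samples between 10% CO2 with and without LPS only, where all 3 same-numbered pairs were above 0.1 (0.251, 0.192 and 0.106). This pairing comes from the data, since no label states it. Groups and replicate numbers come from the sample titles, and 0 columns were left out.

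Symbols and biotypes were taken from GENCODE 44 for 56410 of 57500 identifiers, and 17 non-coding ZNF symbols of chromosome 19 were left out. The count tables supplied the coordinates. Proteins were translated from GENCODE 44 canonical coding sequences for all 246 members. RefSeq proteins were not used here, which departs from the planned design. Fingers and the A-box were found by pattern, and the A-box pattern is strict, so some KRAB proteins lack a match.

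Counts were fitted with edgeR 4.0.16 in R 4.3.3: filterByExpr, TMM and the robust quasi-likelihood F test, with 4 group means over all 12 libraries (common coefficient of variation 10.7%). P-values were adjusted by Benjamini-Hochberg over 16402 genes, with calls under 0.05. SE is the log2 change divided by the root of F. CPM values are TMM-normalized. The GC correction removed a loess trend (span 0.5) of each library as an offset. The script was tested on simulated data. Alternatives were DESeq2 1.42.0, other filters and scalings, the GC correction, replicate blocks, only the groups compared and each library left out. Counting floors (3 counts) cover counting error only.

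The members, lists, subgroups and tests were chosen with earlier results of these data known. Named members are, per comparison, up to 8 largest rises and falls and 5 smallest p per direction among those called, the 6 highest per kilobase, and those called in at least 3 of 4 comparisons. List genes are up to 3 smallest p per list and comparison, with TRIM28 and SETDB1. Libraries of the same group differed beyond sampling noise in every pairing, so all were kept.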

Additional observations from a re-analysis of the deposited data

How the results depend on the processing

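Counts of falls with LPS ranged from 66 to 90 at 5% CO2 and from 48 to 62 at 10% CO2 with 1 library left out, and the rises from 2 to 4 and from 8 to 14. Of 35 calls of named members with LPS, 4 were lost without some library, 1 of them also under another setting, and 0 reversed under any alternative run. The 4 were those of ZNF93, ZNF570, ZNF460 and ZNF222, all at 10% CO2, and the 1 was that of ZNF93. For 10% CO2 without LPS, leaving out 1 library gave 0 to 4 lower and 0 to 1 higher. With LPS it gave 0 to 3 lower and 0 to 12 higher.

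Without LPS, the members called higher numbered 1 by DESeq2, 2 with no low-count filter and 1 with the GC correction, and those called lower numbered 7 by DESeq2, 0 with only the groups compared, 8 with the GC correction and 1 without mitochondrial genes. With LPS, those called higher numbered 12 by DESeq2 and 8 with only the groups compared, and those called lower 4 with only the groups compared. Among the alternative runs, shares of all tested genes are given only for the GC correction and for DESeq2 without LPS and in the interaction. For the other runs the counts alone do not set the members apart from all tested genes. The median with LPS at 10% CO2 was −0.28 with the GC correction. The share of counts at 10% CO2 with LPS was 0.268% without mitochondrial genes. The interaction could not be fitted with fewer groups.

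In the other 5 pairings of groups, same-numbered libraries had correlations of −0.136 to 0.290 with at least 1 under 0.1 each. The numbers were therefore not taken to pair the samples there. Libraries of different number reached 0.211 (5% CO2 replicate 2 with 10% CO2 replicate 3), so the cutoff of 0.1 cannot settle which samples were paired. For LPS at 10% CO2, where the numbers were taken to pair the samples, the replicate block gave 65 members lower and 13 higher. It changed no call of a named gene there. The block was 1 replicate term fitted over all 12 libraries and all 4 groups, so these counts are not from a paired fit of that comparison alone. With the replicate block, members called at 10% CO2 numbered 7 lower and 1 higher without LPS, and 4 lower and 11 higher with LPS. With the replicate block and the GC correction they numbered 12 lower and 7 higher without LPS, and 4 lower and 9 higher with LPS, while LPS at 5% CO2 gave 4 higher and LPS at 10% CO2 gave 96 lower (median −0.28). Shares of all tested genes called with the replicate block are not given, so these counts alone do not set the members apart. Depth limits members under about 1 CPM.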
